A study of Drosophila melanogaster with 18 samples.

Results

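Transcripts of 9 blood cell genes were measured in the fat body of *Drosophila melanogaster*, 3 of them genes of crystal cells (*PPO1*, *PPO2* and *lz*) and 6 genes of plasmatocytes (*Hml*, *NimC1*, *eater*, *Sr-CI*, *Pxn* and *He*). The 9 genes were taken by name from a table of 16438 genes, and each had 1 row there. All 9 passed the filter on low counts (a mean of at least 15 read counts over the 18 libraries), as did 12460 genes in all.

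RNA of dissected fat bodies of female larvae was sequenced in a Dutch population from the Netherlands and a Zambian population, at early wandering, late wandering and white prepupal stages. The wandering stages are those of last-instar larvae after feeding has ended, and the white prepupa follows them. Each population had 3 libraries per stage, and each library pooled 12 Dutch or 10 Zambian isofemale strains (lines founded by single females). The question of the design is how expression differs between a derived European and an ancestral African population as development proceeds. The 6 groups were Dutch early, Zambian early, Dutch late, Zambian late, Dutch prepupal and Zambian prepupal. No allele was engineered and no agent was given to either population. All larvae were staged at 25 °C at 250 per vial on dyed food, and larval stages were read from the colour of the gut. The same strains entered every replicate of a population, so the spread between replicates, and every p-value below, leaves out the variation among strains.

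Insect blood cells, or haemocytes, are free cells of the open circulation, and many of them rest on larval tissues. Plasmatocytes are the macrophage-like majority, which engulf microbes and dying cells and lay down matrix. Crystal cells are rarer and hold prophenoloxidases, the inactive forms of the enzymes that oxidise phenols to melanin at wounds and around parasites. No sort separated haemocytes from fat body cells here, so a level in these libraries could stem from either, and fewer cells of a type and less RNA per cell cannot be told apart.

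Library totals ranged from 14998610 to 37250385 counts, and the 2 lowest were replicate 2 of the Dutch prepupal group and replicate 2 of the Zambian prepupal group. CPM are counts per 1000000 of a library total multiplied by its normalization factor, so they are not shares of the reads. The 7 fat body markers, which code for larval serum proteins and other fat body products, summed to 262151 to 582230 CPM. They so stood far above the other marker lists in every library. The fat body sum was lower in prepupae, at 264742 to 313948 CPM in Dutch and 311583 to 354879 CPM in Zambian libraries, than in early larvae, at 517894 CPM or more in Dutch and 493456 CPM or more in Zambian libraries. Salivary gland markers summed to 4.38 to 28.5 CPM and gut markers to 2.73 to 79.8 CPM. In late larvae 2 of 6 salivary gland markers were called lower in Dutch libraries, where 27.8% of all genes were called. Their sums were apart there, at 7.11 to 13.1 CPM in Dutch and 15.7 to 18.8 CPM in Zambian libraries. Of 7 fat body markers, 1 was called higher and 1 lower in Dutch late larvae. The part of salivary gland RNA in the late results was not tested. Muscle and neuron markers, some of which were also called between the populations, are given with the results they touch. Of 11 comparisons made by the edgeR quasi-likelihood test, 3 set Dutch against Zambian libraries at a stage, 6 set stages against each other within a population, and 2 tested whether the change between stages differed between the populations. A gene is called where the p-value, adjusted over all 12460 genes by the Benjamini-Hochberg method, was under 0.05.

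Positions are given on assembly BDGP6. *PPO1* (FBgn0283437) is on 2R, 17887220 to 17889973, minus strand, inside the gene *Elk* of the other strand but with 0 shared exonic bases. *PPO2* (FBgn0033367) is on 2R, 9042261 to 9044709, minus strand, and *lz* (FBgn0002576) on X, 9284649 to 9303636, plus strand. *Hml* (FBgn0029167) is on 3L, 13846054 to 13860001, plus strand, *eater* (FBgn0243514) on 3R, 27095867 to 27099679, minus strand, and *Sr-CI* (FBgn0014033) on 2L, 4121702 to 4124153, plus strand. *NimC1* (FBgn0259896, 2L, 13973158 to 13976769, minus strand) and *He* (FBgn0028430, 2L, 13972096 to 13972947, minus strand) are neighbours, 210 bases apart. *He* shares 78 of its 673 exonic bases with *NimB5* on the other strand, which had a mean of 2017 counts against 78.1 for *He*, and since no source states that counting used the strand, values of *He* are uncertain. *Pxn* (FBgn0011828, 3L, 2601455 to 2630064, minus strand) shares 82 exonic bases with *CG16986* and 151 with a noncoding gene, whose mean counts were 82.3 and 13.8. *PPO1* and *PPO2* are paralogs, and read pairs that fitted more than 1 gene had been discarded, which could lower the counts of both.

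Per length, the prophenoloxidases were the most abundant of the 9 genes. *PPO2* averaged 17.7 TPM (counts per length, scaled to 1000000 per library) over the 18 libraries, *PPO1* 15.2, *Pxn* 7.82, *He* 5.69, *Hml* 5.27, *NimC1* 3.45, *Sr-CI* 2.87, *eater* 2.61 and *lz* 1.02 TPM. In Dutch early libraries, *PPO2* (27.9 ± 2.60 TPM, SD, n = 3) and *PPO1* (24.4 ± 2.28 TPM) lay within 2 SD of each other, as did *Hml* (8.56 ± 1.33 TPM) and *Pxn* (8.19 ± 1.23 TPM). Within each of these libraries, however, *PPO1* was below *PPO2*, at 0.870 to 0.877 of its TPM. *Sr-CI* (2.78 ± 0.299 TPM), *eater* (2.67 ± 0.704 TPM) and *NimC1* (2.59 ± 0.229 TPM) also had overlapping spreads there. By the prepupal stage this order had changed. In Dutch prepupal libraries *Hml* (2.07 ± 0.351 TPM) was below *Pxn* (6.59 ± 1.38 TPM) and, within each library, below *NimC1* (2.77 ± 0.610 TPM). In Zambian prepupal libraries *Pxn* (5.92 ± 0.226 TPM) stood above *PPO2* (3.58 ± 0.520 TPM) and *PPO1* (2.48 ± 0.184 TPM). *NimC1* (4.04 ± 0.432 TPM) stood above *PPO1* there and overlapped *PPO2*. The genes also differed in how much they moved, with group means in CPM spanning 13.9-fold for *PPO1*, 11.01-fold for *PPO2*, 6.86-fold for *Hml* and 3.46-fold for *eater*, against 2.13-fold or less for the other 5 genes.

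**Figure D1:**
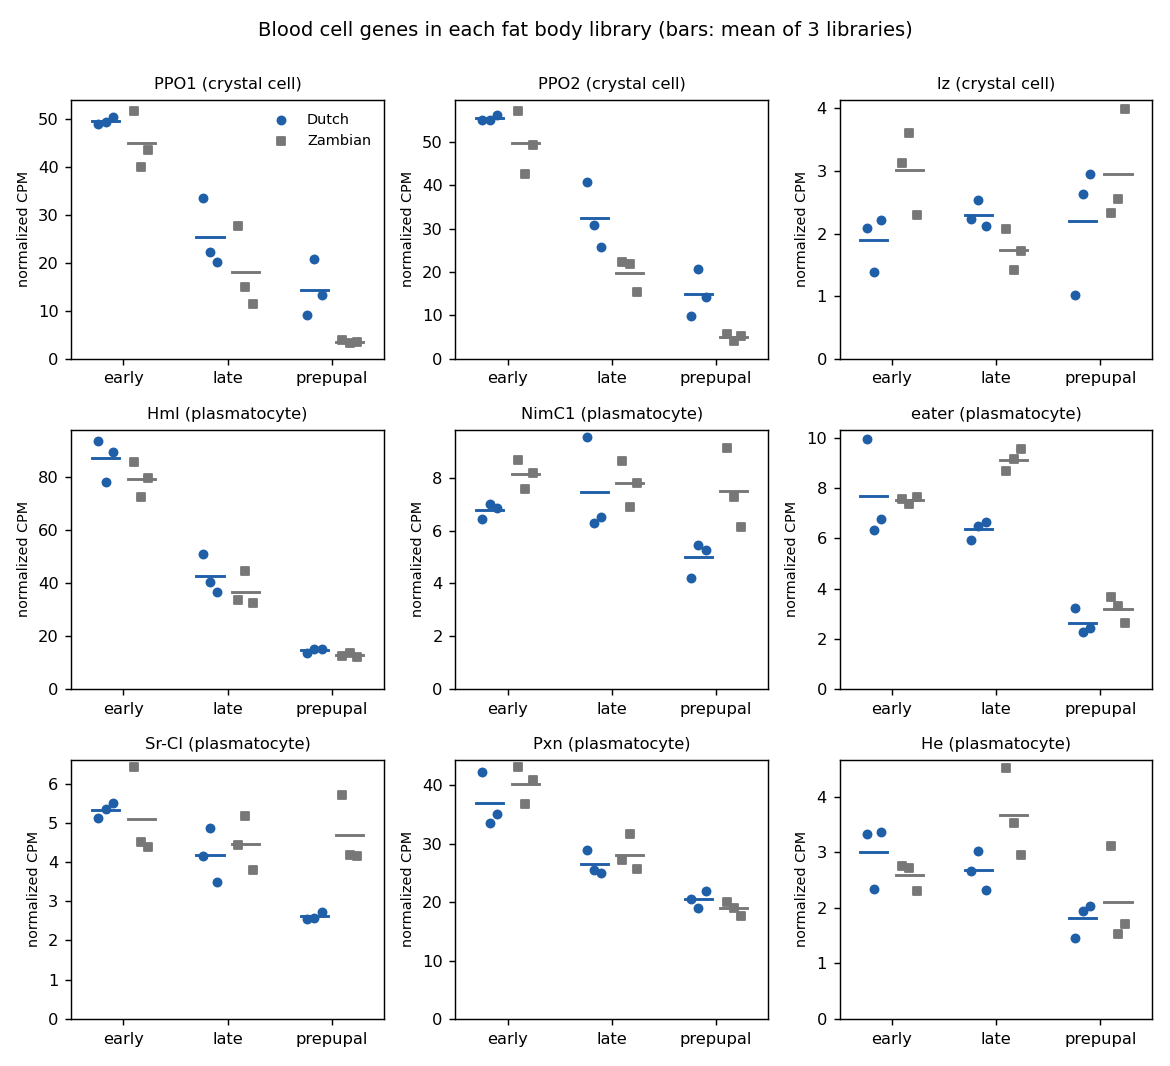
Normalized CPM (vertical axes, linear, from 0) of the 9 genes in each of the 18 libraries by stage (horizontal axes), with Dutch libraries as blue circles, Zambian libraries as grey squares and bars at the mean of 3 libraries. The prepupal Dutch libraries of *PPO1* (9.12 to 20.8 CPM) and *PPO2* (9.91 to 20.7 CPM) lie above all prepupal Zambian ones (3.24 to 3.92 and 4.13 to 5.78 CPM), while *Hml* falls to about the same level in both populations.

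*PPO1* encodes a prophenoloxidase that crystal cells release when they rupture at a wound. In early larvae it had 49.1, 49.5 and 50.4 CPM in Dutch libraries, against 51.7, 40.1 and 43.7 CPM in Zambian libraries. In late larvae it had 33.6, 22.3 and 20.3 CPM in Dutch libraries, against 27.8, 15.01 and 11.4 CPM in Zambian libraries. In prepupae it had 9.12, 20.8 and 13.4 CPM in Dutch libraries, against 3.92, 3.24 and 3.54 CPM in Zambian libraries. The populations overlapped in both larval stages, and in prepupae every Dutch library lay above every Zambian one. Replicate 2 of the Dutch prepupal group was the highest of the prepupal libraries and replicate 1 of the Zambian late group the highest of the Zambian late ones.

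*PPO2* encodes the second prophenoloxidase of crystal cells, which they store in crystalline form. It had 55.0, 55.1 and 56.2 CPM in Dutch early libraries, against 57.0, 42.5 and 49.3 CPM in Zambian early libraries. Late libraries had 40.8, 30.9 and 25.7 CPM in the Dutch population, against 22.3, 21.8 and 15.5 CPM in the Zambian one. Prepupal libraries had 9.91, 20.7 and 14.1 CPM in the Dutch population, against 5.78, 4.13 and 5.20 CPM in the Zambian one. The populations thus overlapped only in early larvae, and within the Dutch prepupal group replicate 2 was again the highest.

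Early larvae of the populations did not differ detectably in either prophenoloxidase. Of the 9 genes 0 were called there by edgeR, where 7.53% of all genes were called, and DESeq2 also called 0. *lz* was the only one of the 9 with an unadjusted p under 0.05. The log2 fold change, Dutch over Zambian, was 0.14 for *PPO1* (95% interval -0.38 to 0.66) and 0.16 for *PPO2* (-0.25 to 0.56).

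In late larvae *PPO2* was higher in Dutch libraries, 1.64-fold (log2 fold change 0.71, SE 0.21, edgeR adjusted p = 0.0186). It was 1 of 2 of the 9 genes called at this stage, with 1 higher and 1 lower, where 27.8% of all genes were called. *PPO1* had a log2 fold change of 0.49 (SE 0.27, adjusted p = 0.173) and was not called. The value of *PPO1* rested on replicate 1 of the Zambian late group, without which it was called (0.94, adjusted p = 0.00991), and that of *PPO2* on replicate 3 of the same group, without which it was not (0.56, adjusted p = 0.0987). The call of *PPO2* was also lost with the summed level of 179 chemosensory receptor genes as a covariate (0.92, adjusted p = 0.224), an alternative chosen after seeing the data. That sum ranged from 195 to 208 CPM in Dutch late and from 100 to 137 CPM in Zambian late libraries, and its part in the result was not tested further.

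In prepupae both prophenoloxidases were higher in Dutch libraries. *PPO1* was 3.96-fold higher (log2 fold change 1.99, SE 0.30, edgeR adjusted p = 0.000228) and *PPO2* 2.90-fold higher (1.54, SE 0.23, adjusted p = 0.000183). Of the 9 genes 3 were called at this stage, 2 higher and 1 lower, where 4.75% of all genes were called. The calls of *PPO1* and *PPO2* held in each of 27 alternative fits, with log2 fold changes of 1.59 to 2.24 for *PPO1* and 1.13 to 1.77 for *PPO2*. Without replicate 2 of the Dutch prepupal group, the library with the highest values, *PPO1* was at 1.65 (adjusted p = 0.00189) and *PPO2* at 1.24 (adjusted p = 0.00142).

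**Figure D2:**
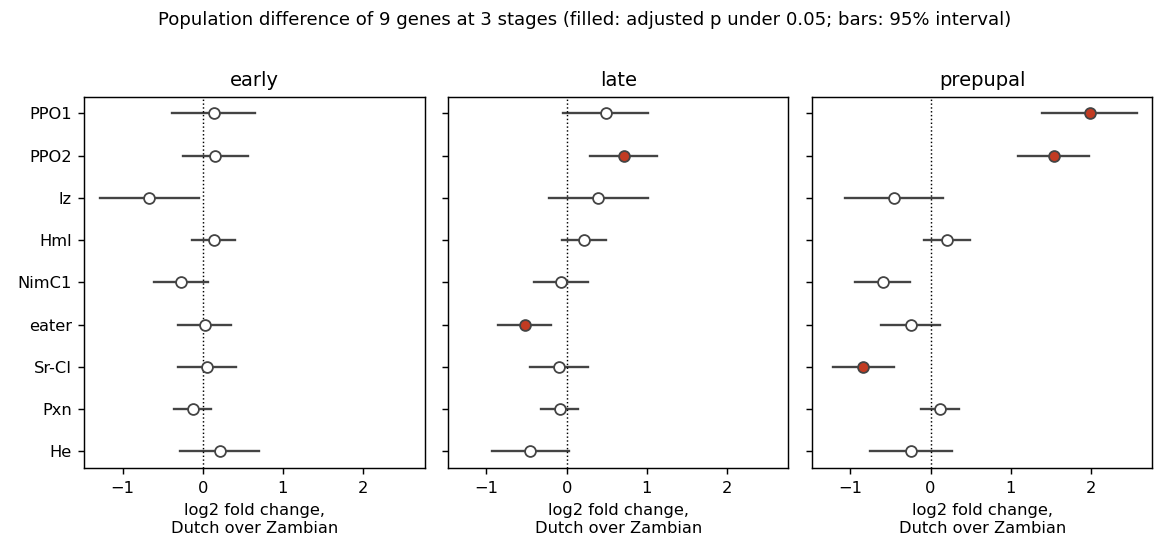
Log2 fold change of Dutch over Zambian libraries (horizontal axis) for the 9 genes (rows) at the early, late and prepupal stages, with 95% intervals as bars and filled points where the edgeR adjusted p was under 0.05. Filled points are 0 in early larvae, *PPO2* (0.71) and *eater* (-0.52) in late larvae, and *PPO1* (1.99), *PPO2* (1.54) and *Sr-CI* (-0.84) in prepupae.

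Both prophenoloxidases fell with each step of development in both populations. In late against early larvae, *PPO1* fell by 0.97 on the log2 scale in the Dutch population (SE 0.27, adjusted p = 0.00686) and by 1.32 in the Zambian one (SE 0.27, adjusted p = 0.000565). *PPO2* fell by 0.77 in the Dutch population (SE 0.21, adjusted p = 0.00578) and by 1.32 in the Zambian one (SE 0.21, adjusted p = 4.1e-05). In prepupae against late larvae, *PPO1* fell by 0.83 in the Dutch population (SE 0.27, adjusted p = 0.0446), with overlapping libraries, and by 2.33 in the Zambian one (SE 0.30, adjusted p = 2.55e-05). *PPO2* fell by 1.14 in the Dutch population (SE 0.21, adjusted p = 0.000755) and by 1.97 in the Zambian one (SE 0.23, adjusted p = 7.84e-06). The Dutch step of *PPO1* into the prepupal stage was the least stable of these, since it was not called in 11 of 26 alternative fits. Libraries whose omission ended that call were replicates 1 and 2 of Dutch late (adjusted p = 0.157 and 0.0514), replicates 1 and 3 of Dutch prepupal (0.234 and 0.108), replicate 1 of Zambian early (0.0502) and each Zambian prepupal replicate (0.0538 to 0.0565).

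Over the whole span, from early larvae to prepupae, *PPO1* fell by 1.80 in the Dutch population (SE 0.28, adjusted p = 1.55e-05), which is 3.49-fold, and by 3.65 in the Zambian one (SE 0.31, adjusted p = 5.61e-09), which is 12.6-fold. *PPO2* fell by 1.91 in the Dutch population (SE 0.22, adjusted p = 2.93e-07), 3.77-fold, and by 3.29 in the Zambian one (SE 0.23, adjusted p = 5.86e-10), 9.77-fold. The difference between these falls was itself tested. It was 1.85 for *PPO1* (SE 0.40, adjusted p = 0.0181) and 1.38 for *PPO2* (SE 0.31, adjusted p = 0.0224), so that both fell less in the Dutch population. They were the only 2 of the 9 genes called for this difference, where 1.48% of all genes were called. For the early-to-late change the difference was called for 0 of the 9 genes by edgeR, where 7.87% of all genes were called, and by DESeq2 for 0, while *lz* and *eater* had unadjusted p-values under 0.05.

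The calls of a different early-to-prepupal change were close to the threshold. For *PPO1* the call was lost without Dutch early replicate 1 or 2, Zambian early replicate 1, Dutch prepupal replicate 2, or Zambian prepupal replicate 2 or 3 (adjusted p = 0.0508 to 0.0601). For *PPO2* it was lost without Dutch early replicate 2, Zambian early replicate 1, Dutch prepupal replicate 2, or Zambian prepupal replicate 2 or 3 (adjusted p = 0.0506 to 0.0796). Without both prepupal libraries of lowest total the differences were 1.45 (adjusted p = 0.154) and 0.97 (adjusted p = 0.191).

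**Figure D3:**
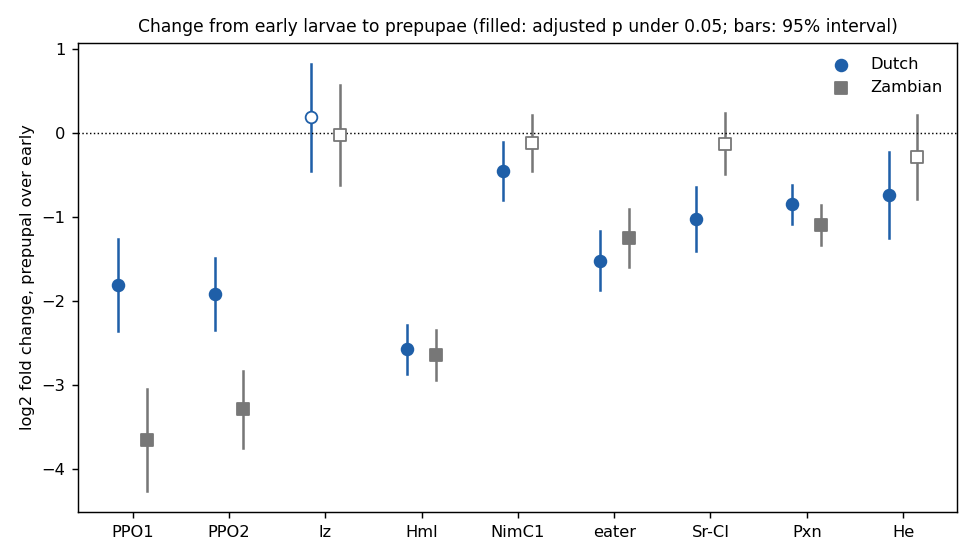
Log2 fold change of prepupal over early libraries (vertical axis) for the 9 genes, with Dutch values as blue circles left of Zambian values as grey squares, 95% intervals as bars and filled symbols where the edgeR adjusted p was under 0.05. *PPO1* (-1.80 Dutch, -3.65 Zambian) and *PPO2* (-1.91 Dutch, -3.29 Zambian) separate the populations, while *Hml* (-2.58 Dutch, -2.64 Zambian) does not.

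*lz* encodes the Runx transcription factor that commits cells to the crystal cell fate, and it also acts in the developing eye. Its counts were low, 31 to 152 per library. It had 2.09, 1.39 and 2.22 CPM in Dutch early libraries, against 3.13, 3.61 and 2.30 CPM in Zambian early libraries. In late libraries it had 2.24, 2.54 and 2.12 CPM in the Dutch population, against 2.08, 1.41 and 1.73 CPM in the Zambian one, and in prepupal libraries 1.03, 2.64 and 2.96 CPM, against 2.34, 2.55 and 3.99 CPM. Dutch libraries thus lay below Zambian ones in early larvae, above them in late larvae and overlapped them in prepupae. Of the 11 comparisons edgeR called *lz* in 0, with an unadjusted p under 0.05 in 4, and DESeq2 called it in Zambian late against early larvae. Its log2 fold change in early larvae, Dutch over Zambian, was -0.66 (SE 0.32, adjusted p = 0.241), and in Zambian late against early larvae -0.79 (SE 0.31, adjusted p = 0.0548). The second of these was called in 5 of 26 alternative fits, with DESeq2 (-0.76, adjusted p = 0.0432) and without Zambian late replicate 1 (-0.94, adjusted p = 0.0476), Dutch prepupal replicate 1 or 3 (adjusted p = 0.0176 and 0.0441) or Zambian prepupal replicate 3 (adjusted p = 0.0472). In contrast to the prophenoloxidases, its change to the prepupal stage was 0.19 in the Dutch population (95% interval -0.45 to 0.82) and -0.02 in the Zambian one (-0.62 to 0.57). Within groups, *lz* followed the summed chemosensory receptor level (Pearson r = 0.65 of deviations from group means over 18 libraries, which share depth and normalization), and with that level as a covariate its early difference was called (-0.89, adjusted p = 0.026).

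*Hml* encodes hemolectin, a large secreted protein of the blood clot that is made by most larval plasmatocytes. In early larvae it had 93.9, 78.2 and 89.8 CPM in Dutch libraries, against 85.8, 72.6 and 79.6 CPM in Zambian libraries. In late larvae it had 51.0, 40.6 and 36.5 CPM in Dutch libraries, against 33.5, 44.7 and 32.4 CPM in Zambian libraries, and in prepupae 13.7, 15.2 and 15.1 CPM, against 12.3, 13.7 and 12.2 CPM. The stages did not overlap in either population, and the populations overlapped in both larval stages. In prepupae the lowest Dutch library was level with the highest Zambian one.

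*Hml* fell at each step in both populations. The fall was 1.03 on the log2 scale in Dutch late against early larvae (SE 0.14, adjusted p = 7.33e-06) and 1.11 in Zambian ones (SE 0.14, adjusted p = 2.59e-06), then 1.54 in Dutch prepupae against late larvae (SE 0.15, adjusted p = 6.11e-07) and 1.53 in Zambian ones (SE 0.15, adjusted p = 1.06e-06). Prepupae against early larvae gave a 5.96-fold fall in the Dutch population and a 6.24-fold fall in the Zambian one. The difference between these changes was 0.07 (95% interval -0.33 to 0.46), an interval that ends below the 1.07 at which that of *PPO1* began. The population difference of *Hml* was not called at any stage, with log2 fold changes of 0.14, 0.21 and 0.20 in early larvae, late larvae and prepupae. In late larvae it was called under 2 other normalizations (0.43, adjusted p = 0.021, with upper-quartile factors, and 0.46, adjusted p = 0.0161, with factors from well expressed genes). These shifted the all-gene median at that stage upward by 0.21 and 0.24 on the log2 scale.

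*Pxn* encodes peroxidasin, a haem peroxidase that cross-links collagen in basement membranes and is made by plasmatocytes and by other cells. Dutch libraries had 42.3, 33.6 and 35.2 CPM in early larvae, against 43.1, 36.8 and 40.9 CPM in Zambian libraries, and 20.6, 19.0 and 21.98 CPM in prepupae, against 20.04, 19.1 and 17.7 CPM. The populations overlapped at both stages, and late libraries lay between, at 25.0 to 29.0 CPM in the Dutch population and 25.6 to 31.6 CPM in the Zambian one. *Pxn* fell by 0.85 in Dutch prepupae against early larvae (SE 0.12, adjusted p = 5.51e-06) and by 1.09 in Zambian ones (SE 0.12, adjusted p = 2.24e-07). Its population difference was not called at any stage, with 95% intervals from -0.35 at the lowest to 0.36 at the highest. The Dutch fall into the late stage (0.48, adjusted p = 0.00289) was lost without Dutch early replicate 1 (-0.23, adjusted p = 0.118). In TPM, *Pxn* had 8.19 ± 1.23 in Dutch early and 8.26 ± 0.537 in Dutch late libraries. The Dutch fall from late larvae to prepupae (0.36, adjusted p = 0.0449) was lost without Dutch late replicate 1 or 2, Dutch prepupal replicate 1 or 2 or Zambian prepupal replicate 2 (adjusted p = 0.0512 to 0.173), and with DESeq2 (adjusted p = 0.11).

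*eater* and *NimC1* encode receptors with rows of EGF-like repeats by which plasmatocytes take up bacteria. For *eater*, Dutch early libraries had 9.94, 6.33 and 6.76 CPM, against 7.57, 7.39 and 7.65 CPM in Zambian ones. Late libraries had 5.93, 6.48 and 6.65 CPM in the Dutch population, against 8.68, 9.18 and 9.57 CPM in the Zambian one, and prepupal libraries 3.22, 2.26 and 2.44 CPM, against 3.65, 3.29 and 2.62 CPM. All prepupal libraries were thus below all larval ones, and the populations were apart only in late larvae, where *eater* was lower in Dutch libraries (log2 fold change -0.52, SE 0.17, edgeR adjusted p = 0.0262).

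That late difference of *eater* depended on the processing. It was lost with upper-quartile factors (-0.31, adjusted p = 0.159), with factors from well expressed genes (-0.27, adjusted p = 0.203), with the chemosensory covariate (-0.16, adjusted p = 0.817), and without Dutch late replicate 1 or 2 or Zambian late replicate 2 or 3 (adjusted p = 0.068 to 0.0913). The prepupal fall of *eater* kept its call in every alternative fit. It was 2.37-fold in Dutch prepupae against late larvae (log2 fold change -1.25, SE 0.18, adjusted p = 5.71e-05) and 2.87-fold in Zambian ones (-1.52, SE 0.18, adjusted p = 7.75e-06).

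*NimC1* had 6.44, 7.01 and 6.86 CPM in Dutch early libraries, against 8.66, 7.59 and 8.19 CPM in Zambian early libraries. It had 9.56, 6.28 and 6.51 CPM in Dutch late libraries, against 8.65, 6.91 and 7.81 CPM in Zambian late libraries, and 4.22, 5.46 and 5.28 CPM in Dutch prepupal libraries, against 9.14, 7.27 and 6.14 CPM in Zambian prepupal libraries. Dutch libraries lay below Zambian ones in early larvae and in prepupae, but neither difference was called. In prepupae the log2 fold change was -0.60 (SE 0.18, adjusted p = 0.0558), and it was called in 11 of 27 alternative fits. Over the fits with a library left out, the adjusted p ranged from 0.0175 to 0.301.

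In Dutch prepupae *NimC1* was lower than in late larvae (log2 fold change -0.58, SE 0.18, adjusted p = 0.027) and than in early larvae (-0.45, SE 0.18, adjusted p = 0.0448). In TPM, *NimC1* had 2.59 ± 0.229 in Dutch early and 2.77 ± 0.610 in Dutch prepupal libraries. The change from late larvae was lost without Dutch late replicate 1 (adjusted p = 0.0995) or Dutch prepupal replicate 1 (adjusted p = 0.153), with DESeq2 (adjusted p = 0.0506) and without both prepupal libraries of lowest total (adjusted p = 0.0554), and that from early larvae in 17 of 26 alternative fits (adjusted p of the lost calls 0.0504 to 0.224), 11 of them with a single library left out (each Dutch early and each Zambian early library, Dutch late 1, Zambian late 3, Dutch prepupal 1 or 3, or Zambian prepupal 2). In the Zambian population *NimC1* changed by -0.05 (95% interval -0.39 to 0.28) between late larvae and prepupae, and the difference between the populations in the early-to-prepupal change was not called (-0.33, adjusted p = 0.687).

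*Sr-CI* encodes a class C scavenger receptor that binds bacteria. Dutch early libraries had 5.12, 5.35 and 5.51 CPM, against 6.41, 4.50 and 4.39 CPM in Zambian early libraries. Dutch late libraries had 4.16, 4.87 and 3.50 CPM, against 4.43, 5.17 and 3.78 CPM in Zambian late libraries, and Dutch prepupal libraries 2.55, 2.57 and 2.73 CPM, against 5.72, 4.17 and 4.15 CPM in Zambian prepupal libraries. The populations overlapped in larvae and were apart in prepupae, where *Sr-CI* was lower in Dutch libraries, 1.79-fold (log2 fold change -0.84, SE 0.19, edgeR adjusted p = 0.011), the opposite direction to the prophenoloxidases. The call was lost without Dutch prepupal replicate 1 (adjusted p = 0.0581), without Zambian prepupal replicate 1 (-0.67, adjusted p = 0.0828) and without both prepupal libraries of lowest total (adjusted p = 0.0566).

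From early larvae to prepupae *Sr-CI* fell by 1.02 in the Dutch population (SE 0.19, adjusted p = 0.000158) and changed by -0.12 in the Zambian one (95% interval -0.48 to 0.23). The difference between these changes was -0.90 (SE 0.27) and was not called (adjusted p = 0.126), so the populations are not shown to differ in it. From late larvae to prepupae it fell by 0.67 in the Dutch population (adjusted p = 0.0201), a call that was lost without Dutch late replicate 2 (adjusted p = 0.103) and without Dutch prepupal replicate 1 or 2 (adjusted p = 0.0759 and 0.0604).

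*He* encodes hemese, a glycoprotein of the haemocyte surface. With 31 to 154 counts per library it had 2.34 to 3.36 CPM in Dutch early, against 2.30 to 2.75 CPM in Zambian early libraries. In late libraries it had 2.33 to 3.03 CPM in the Dutch population, against 2.95 to 4.51 CPM in the Zambian one, and in prepupal libraries 1.47 to 2.04 CPM, against 1.52 to 3.12 CPM. The populations overlapped at every stage and no population difference was called. *He* fell in Dutch prepupae against early larvae (log2 fold change -0.74, SE 0.26, adjusted p = 0.0253) and in Zambian prepupae against late larvae (-0.78, SE 0.25, adjusted p = 0.0461). The call of the Dutch change was lost in 8 of 26 alternative fits (adjusted p = 0.058 to 0.151) and that of the Zambian change in 14 (adjusted p = 0.0518 to 0.209). The Dutch call was lost without Dutch early replicate 1 or 3, Zambian early 2 or 3, Dutch late 1 or Dutch prepupal 1. The Zambian call was lost without Dutch early replicate 1, any Zambian early replicate, Dutch late 2, Zambian late 1 or 2, Dutch prepupal 2, or Zambian prepupal 2 or 3. *NimB5*, which overlaps *He*, fell as well, by 1.83 in Dutch prepupae against early larvae and by 1.24 in Zambian ones, and its part in the values of *He* was not tested.

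Counted over the stages on normalized counts, the 9 genes moved down or were not called. In TPM, group means did not fall for *Pxn* from Dutch early to late larvae or for *NimC1* from Dutch early larvae to prepupae. The other called falls kept their direction in TPM group means. In late against early larvae 4 were lower and 0 higher in each population (*PPO1*, *PPO2*, *Hml* and *Pxn* in both), where 41.6% of all genes were called in Dutch libraries and 35.6% in Zambian libraries. In prepupae against late larvae 7 were lower in the Dutch population (all but *lz* and *He*), where 15.1% of all genes were called, and 6 in the Zambian one (*PPO1*, *PPO2*, *Hml*, *eater*, *Pxn* and *He*), where 12.3% were called. In prepupae against early larvae 8 were lower in the Dutch population (all but *lz*), where 45.5% of all genes were called, and 5 in the Zambian one (*PPO1*, *PPO2*, *Hml*, *eater* and *Pxn*), where 41.2% were called. Between early larvae and prepupae 26.1% of all genes were called lower in Dutch libraries and 23.1% in Zambian libraries. Without both prepupal libraries of lowest total, the Dutch count against late larvae was 4. It was 4 without Dutch late replicate 1 or 2 and 3 without Dutch prepupal replicate 1.

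Ratios within a library show how unevenly these genes moved. The TPM of *PPO1* over that of *PPO2* was 0.870 to 0.877 in Dutch early, against 0.864 to 0.920 in Zambian early libraries, and 0.897 to 0.981 in Dutch prepupal, against 0.662 to 0.766 in Zambian prepupal libraries. In late larvae it was 0.703 to 0.803 in Dutch libraries, against 0.672, 0.720 and 1.22 in Zambian libraries, the last value being that of replicate 1. The TPM of *Hml* over that of *NimC1* was 2.85 to 3.72 in Dutch early, against 2.44 to 2.53 in Zambian early libraries, and 0.710 to 0.829 in Dutch prepupal, against 0.344 to 0.508 in Zambian prepupal libraries. Within prepupal libraries *Hml* was thus below *NimC1* in both populations, and within early larval libraries above it.

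**Figure D4:**
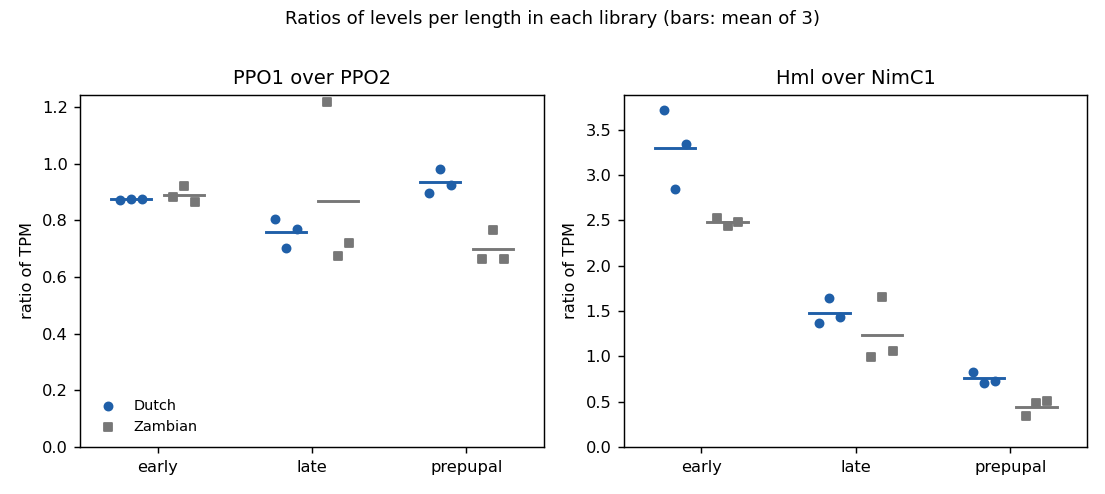
Ratio of TPM (vertical axes, from 0) of *PPO1* over *PPO2* (left) and of *Hml* over *NimC1* (right) in each library by stage, with Dutch libraries as blue circles, Zambian libraries as grey squares and bars at the mean of 3. The ratio of the prophenoloxidases is 0.864 to 0.920 over all early libraries and lies lower in Zambian prepupae (0.662 to 0.766) than in Dutch ones (0.897 to 0.981), and the ratio of *Hml* to *NimC1* drops below 1 in all prepupal libraries.

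Across the 18 libraries, whose stages drive most of the variation, the log2 CPM of *PPO1* was most like that of *PPO2* (Pearson r = 0.988), followed by the matrix gene *Tig* (0.945) and *Ugt301D1* (0.943). *PPO2* was most like *PPO1*, *Ugt301D1* (0.974) and *Tig* (0.966), and *Pxn* most like *Obp99a* (0.968), *Naglu* (0.967) and *CG11594* (0.966). *Hml* was most like *CG4752* (0.991), *Eaat1* (0.990) and *Cyp4ac1* (0.988). No other gene among the 9 was in the first 3 places for *Hml*, *NimC1*, *eater*, *Sr-CI*, *Pxn* or *lz*, and *He* had *eater* in the third place (0.747). With group means removed, *PPO1* and *PPO2* still deviated together (r = 0.87), as did *Hml* and *Pxn* (0.76), whereas *eater* went against *PPO1* (-0.43), *PPO2* (-0.43) and *lz* (-0.46). These libraries share depth, normalization and tissue, and the values of r are given as a description.

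Other phagocytic and scavenger receptors moved in both directions. Of 14 listed, 13 were tested, and *NimC2* had the highest level, with a mean of 1764 CPM. In prepupae 3 were lower and 0 higher in Dutch libraries (*NimB1*, which like *NimB2* codes for a secreted protein with NIM repeats, log2 fold change -1.89, adjusted p = 2.49e-05, *NimB2*, -0.88, adjusted p = 0.00853, and *NimC3*, -0.57, adjusted p = 0.0468), with a median of -0.08 over the list and 0.00 over all genes. Of all genes, 4.75% were called at that stage. In late larvae 3 were lower, among them *NimB1* (-1.46, adjusted p = 0.000205) and *NimC3* (-0.94, adjusted p = 0.000592), and 1 was higher (*Sr-CIV*, 1.39, adjusted p = 0.0144), so that 4 of 13 were called, against 27.8% of all genes. In early larvae *crq*, a receptor for dying cells, was the only one called (0.50, adjusted p = 0.0164), where 7.53% of all genes were called. From early larvae to prepupae 3 rose and 4 fell in the Dutch population (45.5% of all genes were called) and 5 rose and 4 fell in the Zambian one (41.2%). *NimB2* had 94.7 ± 6.74 CPM in Dutch prepupal and 174 ± 14.9 CPM in Zambian prepupal libraries (SD, n = 3 each), so it was among the genes that were lower there like *Sr-CI*.

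Among the enzymes that act around the prophenoloxidases no difference was called in prepupae. Of 12 genes of the melanization cascade (proteases, serpins and the enzymes of melanin chemistry), edgeR and DESeq2 each called 0 between the populations in prepupae, and 2 had an unadjusted p under 0.05. Of all genes, only 4.75% were called by edgeR at that stage. In late larvae 1 was higher in Dutch libraries (*yellow-f2*, which encodes an enzyme of melanin synthesis, 1.06, adjusted p = 0.000931) and 4 lower, among them its relative *yellow-f* (-0.86, adjusted p = 0.0032) and the serpin gene *Spn28Dc* (-1.04, adjusted p = 0.0482), so that 5 of 12 were called, against 27.8% of all genes. In early larvae *Hayan*, a protease that activates prophenoloxidase, was higher in Dutch libraries (0.48, adjusted p = 0.014). It was the only 1 of the 12 called there, where 7.53% of all genes were called. From early larvae to prepupae 4 rose and 5 fell in the Dutch population (45.5% of all genes were called) and 4 rose and 3 fell in the Zambian one (41.2%). *ple*, which encodes tyrosine hydroxylase and was picked after its values were seen, rose by 5.40 on the log2 scale in Dutch prepupae and by 5.66 in Zambian prepupae while *PPO1* and *PPO2* fell.

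No marker of other blood cells and no regulator of their lineages was called between the populations in prepupae. Of all genes, 4.75% were called there, against 7.53% in early and 27.8% in late larvae. Of the lamellocyte markers, genes of the flat cells that wrap parasites, 3 of 4 were tested, and edgeR and DESeq2 called 0 at each stage, with unadjusted p-values under 0.05 for 2 of them in early larvae and 0 in late larvae and prepupae. Their sum was 3.54 to 5.03 CPM in Dutch early, against 7.06 to 9.55 CPM in Zambian early libraries, and so apart there, while in late larvae (4.23 to 6.83 CPM Dutch, 4.87 to 15.3 CPM Zambian) and in prepupae (5.98 to 6.29 CPM Dutch, 6.25 to 10.3 CPM Zambian) the populations overlapped. Of 10 regulators of blood cell lineages, 0 were called in prepupae by either tool (2 with an unadjusted p under 0.05), and in late larvae *peb* was higher in Dutch libraries (0.83, adjusted p = 0.0289) and *srp* (-0.53, adjusted p = 0.00553) and *Pvr* (-0.57, adjusted p = 0.00288) were lower, which is 3 of 10 where 27.8% of all genes were called. The sum of the regulators was 371 to 398 CPM in Dutch late, against 497 to 575 CPM in Zambian late libraries, with no overlap. *srp* encodes a GATA factor that also acts in the fat body, and *Pvr* a receptor tyrosine kinase of blood cells and other tissues. Of 5 markers of lymph gland progenitors, the cells of the larval blood-forming organ, 0 were called between the populations at any stage by either tool, with 2 at an unadjusted p under 0.05 in early larvae. None of the 10 regulators fell between early larvae and prepupae in either population, and 3 rose in each (edgeR). Of all genes, 19.4% rose and 26.1% fell over that span in Dutch libraries, and 18% rose and 23.1% fell in Zambian libraries.

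Among matrix genes that plasmatocytes and the fat body both express, 3 of 5 were higher in Dutch prepupae and 0 lower, where 4.75% of all genes were called, with a list median of 0.92. Their sum was already apart in early larvae, at 7783 to 8185 CPM in Dutch, against 5556 to 6553 CPM in Zambian libraries. *Tig*, which encodes the matrix protein tiggrin, had 1100 ± 141 CPM in Dutch prepupal and 479 ± 67.4 CPM in Zambian prepupal libraries (log2 fold change 1.20, adjusted p = 0.000589). The collagen genes *vkg* (0.96, adjusted p = 0.000239) and *Col4a1* (0.92, adjusted p = 0.000271) were higher as well. The same 3 were higher in Dutch late larvae (0.39 to 0.70), where 27.8% of all genes were called, and in early larvae 0 were called by either tool, with 3 at an unadjusted p under 0.05. From early larvae to prepupae 4 of 5 fell in the Dutch population, where 45.5% of all genes were called, and 5 of 5 in the Zambian one, where 41.2% were. From late larvae to prepupae 1 of 5 fell in the Dutch population (list median 0.02), where 15.1% of all genes were called. In the Zambian population 3 of 5 fell (list median -0.51), where 12.3% were called. The difference between the populations in the early-to-prepupal change was called for 0 of 5 by either tool (3 with an unadjusted p under 0.05). Of all genes, 1.48% were called for it by edgeR.

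**Figure D5:**
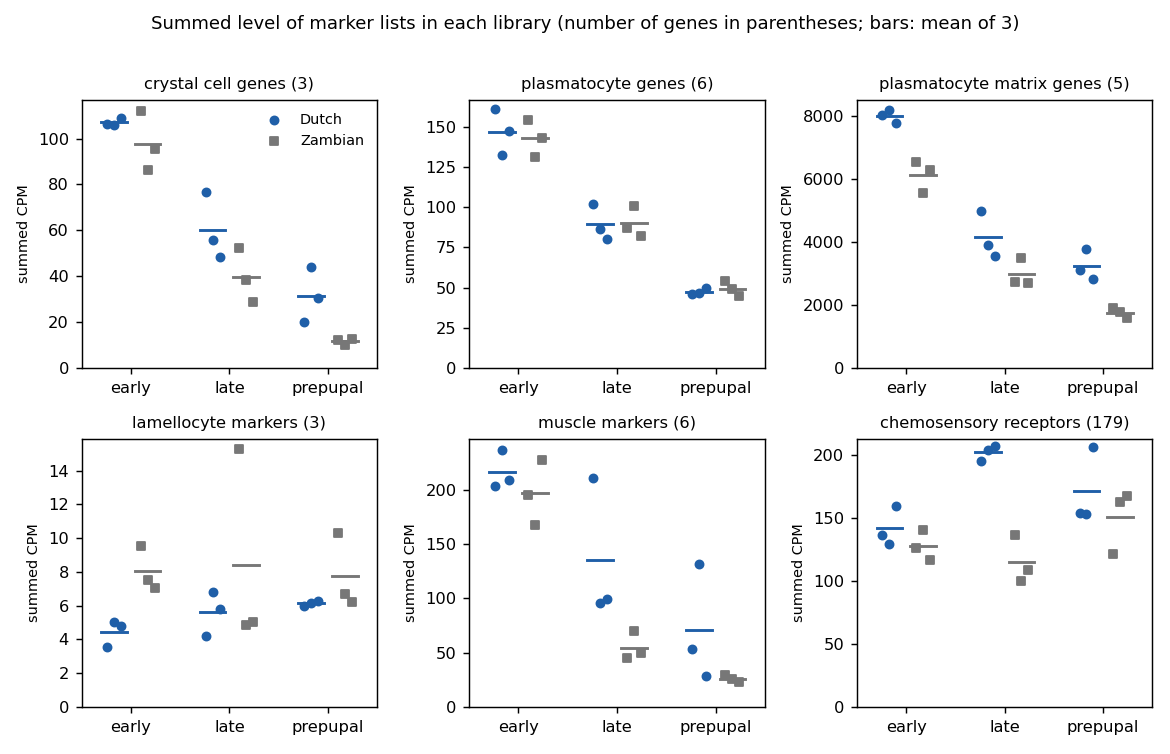
Summed normalized CPM (vertical axes, from 0) of 6 marker lists in each library by stage, with Dutch libraries as blue circles, Zambian libraries as grey squares, bars at the mean of 3 and the number of genes in parentheses. In prepupae the crystal cell sum is 20.1 to 44.1 CPM in Dutch and 9.92 to 12.7 CPM in Zambian libraries, while the plasmatocyte sum is 45.8 to 49.5 CPM in Dutch and 44.5 to 54.0 CPM in Zambian libraries.

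Some muscle markers were higher in Dutch libraries at the stages where prophenoloxidases were. Their sum over 6 genes, all of them tested, was 53.4, 132 and 28.1 CPM in Dutch prepupal libraries, against 29.4, 25.7 and 23.4 CPM in Zambian prepupal ones, and 211, 95.7 and 99.8 CPM in Dutch late libraries, against 44.8, 69.5 and 49.9 CPM in Zambian late ones. *Mhc*, the muscle myosin heavy chain gene, was the only one called in prepupae (log2 fold change 2.20, adjusted p = 0.00113), where 4.75% of all genes were called. In Dutch late larvae 2 of 6 were higher (*Mhc*, 1.90, adjusted p = 0.00154, and *Act57B*, 1.56, adjusted p = 0.0189), where 27.8% of all genes were called. In early larvae, where the prophenoloxidases did not differ detectably, the sums were 204 to 236 CPM in Dutch libraries, against 168 to 227 CPM in Zambian libraries. In the same order of replicates, Dutch prepupal libraries had 9.12, 20.8 and 13.4 CPM of *PPO1* and 9.91, 20.7 and 14.1 CPM of *PPO2*. Dutch late libraries had 33.6, 22.3 and 20.3 CPM of *PPO1* and 40.8, 30.9 and 25.7 CPM of *PPO2*. The part of muscle RNA in the population differences was not tested. Of 5 neuron markers 1 was called lower in Dutch prepupae and 0 higher, with a list median of 0.01. The called gene was *Syt1* (log2 fold change -0.54, adjusted p = 0.0166), which held most of their sum of 384 to 451 CPM in Dutch prepupal, against 564 to 643 CPM in Zambian prepupal libraries.

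Set side by side, the crystal cell sum, made up mostly of *PPO1* and *PPO2*, was 106 to 109 CPM in Dutch early, against 86.2 to 112 CPM in Zambian early libraries, 48.1 to 76.7 CPM in Dutch late, against 28.7 to 52.2 CPM in Zambian late libraries, and 20.1, 44.1 and 30.5 CPM in Dutch prepupal, against 12.0, 9.92 and 12.7 CPM in Zambian prepupal libraries. The third gene, *lz*, averaged 2.21 CPM in Dutch prepupal and 2.96 CPM in Zambian prepupal libraries and was not called there. The sum of the 6 plasmatocyte genes, of which *Hml* and *Pxn* made up most, was 133 to 161 CPM in Dutch early, against 132 to 154 CPM in Zambian early libraries, 80.5 to 102 CPM in Dutch late, against 82.1 to 101 CPM in Zambian late libraries, and 45.8 to 49.5 CPM in Dutch prepupal, against 44.5 to 54.0 CPM in Zambian prepupal libraries. The plasmatocyte sums overlapped between the populations at every stage, although *Sr-CI*, a small part of them, was lower in Dutch prepupae. The crystal cell sums overlapped in early and late larvae and were apart in prepupae.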

How the data were processed

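RNA of pooled female fat bodies was sequenced in 18 libraries, 3 to a group. Per gene, the authors deposited raw whole-number read counts, not normalized. According to the methods of the study, paired reads of ribosome-depleted RNA were mapped with NextGenMap to the FlyBase transcriptome, ambiguous pairs were discarded and counts were summed over the transcripts of a gene. Use of strand is not given in the sources used here. A length per gene is given in the same table, and how it was set is not stated.

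Genes were matched by FlyBase identifier. Names came from the Ensembl annotation (16343 by identifier) and from RefSeq (76 through CG numbers), with 19 left under the name in the table. Library totals of 14998610 to 37250385 counts set the precision of low genes such as *lz* and *He*. Genes with a mean of at least 15 counts were fitted by edgeR (version 4.0.16, under R 4.3.3) with TMM factors and the 6 groups as a factor, and quasi-likelihood F-tests were taken, and p-values were adjusted over 12460 genes by the Benjamini-Hochberg method at 0.05. The standard error of a log2 fold change was its absolute value over the square root of F. CPM values used TMM factors, log2 CPM a prior count of 2, and TPM the counts and lengths in the table. The scripts were tested on simulated data. Figures used matplotlib 3.10.9 in Python 3.11.15.

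Alternatives were DESeq2 1.42.0, other normalizations and filters, a replicate block, fits of a single stage and leaving out each library. A chemosensory covariate and the omission of both prepupal libraries of replicate number 2 were added after seeing the data. The genes and the 15 marker lists were chosen with earlier results of these data known. Named were the 9 genes, in each list the gene of highest mean CPM and up to 3 called genes of largest change between the populations, and up to 3 genes most like each of the 9. The labels do not say that replicates came from separate cultures. No 2 libraries of a group agreed within sampling noise (mean chi-square per gene 6.68 to 113).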

Additional observations from a re-analysis of the deposited data

Results flagged for a closer look

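The change from early larvae to prepupae differed between the populations for *PPO1*, by a log2 value of 1.85 (SE 0.40, edgeR adjusted p = 0.0181), and for *PPO2*, by 1.38 (SE 0.31, adjusted p = 0.0224). Both stand here because the difference between the populations' changes was tested itself and passed the threshold. Each of the 3 Dutch prepupal libraries was above each of the 3 Zambian ones for both genes, while the early libraries overlapped.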

How the results depend on the processing

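Of 41 changes of the 9 genes that were called, 27 kept the call in every alternative fit. Over 1071 alternative fits of these changes 976 kept direction and call, 95 kept the direction but lost the call, and 0 reversed. With the chemosensory covariate the number of the 9 genes called was 1 in place of 0 in early larvae between the populations, 0 in place of 2 in late larvae, and 2 in place of 4 in Dutch late against early larvae. Without both prepupal libraries of replicate number 2 it was 4 in place of 7 in Dutch prepupae against late larvae and 0 in place of 2 for the difference in early-to-prepupal change. Leaving out each library in turn gave 0 to 3 for late larvae between the populations, 3 to 7 for Dutch prepupae against late larvae, and 0 to 2 for the difference in early-to-prepupal change. The causes were not tested. Libraries of the same replicate number did not deviate together over all groups (45 pairs, median r = -0.0127, with 15 over 0.1). Dutch early and Dutch prepupal libraries had positive values for each number (r = 0.0887, 0.260 and 0.423). These values do not settle whether the numbers pair libraries. With the replicate number as a block, the pairing left every count above the same except Dutch prepupae against late larvae, where *PPO1* lost the call (-0.79, adjusted p = 0.0551) and the count was 6.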
